A study of Mus musculus with 24 samples.

Results

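Small Cajal body RNAs (scaRNAs) were examined in small RNA libraries of mouse embryonic stem cells (mESC) and of neural progenitor cells (NPC) differentiated from them. The members were all rows of the deposited count table whose Ensembl identifier has the gene biotype scaRNA in GENCODE mouse release M21, which gave 51 of 55335 rows. The 51 rows carry 46 symbols, because 5 loci are annotated as 2 overlapping entries. Of the 51, 19 had a count in at least 1 library and 14 had 50 or more counts over all libraries.

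The series asks about CAG repeat length in Htt, the gene mutated in Huntington's disease, and the processing of RNA. Each cell type was grown from 6 lines: wild type (WT), an Htt knockout (KO) and 4 lines heterozygous for a CAG knock-in allele. These are Q20, Q50, Q92 and Q111, for 20, 50, 92 and 111 repeats in the sample titles (the growth protocol has 89 for Q92). All mESC were kept with leukemia inhibitory factor on irradiated mouse fibroblast feeder cells, and all NPC were grown without feeder cells on laminin with FGF and EGF. Each of the 12 groups had 2 libraries, and each genotype was represented by 1 line, so that a genotype and a line cannot be told apart. The labels do not say whether the 2 libraries of a group came from separate cultures, and p-values then measure only the spread between these libraries.

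ScaRNAs are guide RNAs that gather in Cajal bodies, nuclear bodies in which the RNAs of the spliceosome mature. They pair with spliceosomal snRNAs and direct a chosen nucleotide to be methylated on its ribose or turned into pseudouridine. The methylation guides have a C box near the 5′ end and a D box near the 3′ end, which are bound by proteins that include Nop58 and fibrillarin, and the pseudouridylation guides have a 3′ end marked by an ACA triplet and are bound by dyskerin. Some scaRNAs carry both kinds of module. Most are cut from introns of protein-coding genes, and a few have promoters of their own.

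The sequences of 7 of the counted members are given here: 6 of the 7 that differed between NPC and mESC, and Gm25492, which did not pass that test and is set beside Gm22728 for its equal length and 3′ end. They are the GENCODE M21 transcripts on build GRCm38, written 5′ to 3′. Capitals mark a C box (ATGATGA or GTGATGA within the first 20 bases), a D box (CTGA within the last 20 bases) or an ACA triplet that ends 3 bases before the 3′ end, searched on the transcript strand. Scarna6 and Gm25395 lie in introns of the same host gene, Atg16l1, on the plus strand, at chr1:87784556-87784820 and chr1:87776938-87777209. They share their first 12 bases with the C box and their last 8 bases with the D box.
Scarna6: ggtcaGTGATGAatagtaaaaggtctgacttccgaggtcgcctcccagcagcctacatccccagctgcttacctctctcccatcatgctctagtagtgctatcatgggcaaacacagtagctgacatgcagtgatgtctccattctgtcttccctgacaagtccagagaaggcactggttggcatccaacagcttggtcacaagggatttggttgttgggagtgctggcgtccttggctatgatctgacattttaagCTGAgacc
Gm25395: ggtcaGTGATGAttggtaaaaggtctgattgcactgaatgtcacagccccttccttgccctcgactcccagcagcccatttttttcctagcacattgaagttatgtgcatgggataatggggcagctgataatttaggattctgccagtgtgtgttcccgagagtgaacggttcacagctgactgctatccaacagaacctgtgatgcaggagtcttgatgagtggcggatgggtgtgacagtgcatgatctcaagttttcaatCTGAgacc
Gm22009 lies in an intron of Kpna4 at chr3:69085105-69085447 on the minus strand and has such boxes too. It is 343 bases long, and its first 60 and last 60 bases are shown.
Gm22009, first bases: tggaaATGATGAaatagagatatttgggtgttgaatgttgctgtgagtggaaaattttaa
Gm22009, last bases: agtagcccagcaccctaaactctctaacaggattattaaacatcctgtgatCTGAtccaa
Gm22728 in an intron of G3bp2 (chr5:92056064-92056192, minus strand) and Gm25492 in an intron of Bud23 (chr5:135053988-135054116, minus strand) are both 129 bases long and end in an ACA triplet, and their levels behaved differently.
Gm22728: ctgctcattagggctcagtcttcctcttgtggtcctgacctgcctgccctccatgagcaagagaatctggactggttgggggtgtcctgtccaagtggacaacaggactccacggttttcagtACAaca
Gm25492: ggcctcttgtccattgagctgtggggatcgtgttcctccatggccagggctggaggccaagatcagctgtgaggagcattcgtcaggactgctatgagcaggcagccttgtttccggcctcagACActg
Gm23751 in an intron of Chd4 (chr6:125121724-125121859, plus strand) and Scarna3a in Cop1 (chr1:159340283-159340422, plus strand) have none of these letters at the set places. Each has an ACA triplet closer to its 3′ end than the set place. Scarna3a overlaps an exon of the microRNA gene Mir1843b on the same strand, so that reads from the pair may not be separable.
Gm23751: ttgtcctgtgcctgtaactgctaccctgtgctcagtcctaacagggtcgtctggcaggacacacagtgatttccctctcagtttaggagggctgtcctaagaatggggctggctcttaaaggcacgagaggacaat
Scarna3a: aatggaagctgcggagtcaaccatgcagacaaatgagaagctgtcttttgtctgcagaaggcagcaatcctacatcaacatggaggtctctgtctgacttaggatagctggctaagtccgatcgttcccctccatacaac

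The ACA triplet was found at that place in 25 of 51 scaRNA transcripts (49.0%), against 18.3% of 1507 snoRNA transcripts and 1.82% of 28877 other transcripts of up to 500 bases. Both the C box and the D box were found in 5 of 51 scaRNA transcripts (9.80%), against 20.0% of snoRNA and 0.0416% of the other transcripts. Among the 14 members with 50 or more counts, 4 had the C and D boxes (Scarna6, Scarna17, Gm22009 and Gm25395), 6 had the ACA triplet and 4 had neither at the set places. Among these 4, Gm24289, Gm23751 and Scarna3a have an ACA triplet closer to the 3′ end. The letters TGAG, the core of the Cajal body localisation box, stood anywhere in 72.5% of scaRNA transcripts. They stood in 51.0% of snoRNA and 24.6% of snRNA transcripts, and in 76.2% of all short transcripts other than scaRNA and snoRNA, a group that includes the snRNAs. The groups were not matched for length, so these shares do not decide whether the letters set the members apart.

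Depth and cell identity were checked over the whole table. Total counts per library were 642384 to 2360434 in mESC and 342022 to 682113 in NPC. Genes of biotype snoRNA took 60.5% to 70.5% of the counts in mESC and 42.2% to 62.6% in NPC, while the Y RNA Rny1 took 0.644% to 1.65% and 13.0% to 40.3%. Markers of embryonic stem cells (15 of 16 listed genes in the table, all with counts in mESC) summed to 766 to 2465 CPM (counts divided by the library total, times 1000000) in mESC and to at most 2.59 CPM in NPC outside Q20, with Dppa5a, Mir294, Nanog and Zfp42 at 0 in all NPC libraries. The Q20 NPC libraries held 397 CPM each of these markers. Neural progenitor markers summed to 2.07 to 13.9 CPM in mESC and 173 to 791 CPM in NPC (10 of 12 with counts; Mir181b-1 and Mir9-2 at 0), and neuron and glia markers to at most 2.81 CPM in mESC and 15.4 to 62.2 CPM in NPC. Feeder fibroblast markers reached at most 13.9 CPM in mESC and 22.9 CPM in NPC, with Mir199a-1, Mir199a-2 and Mir214 at 0 throughout and Col1a1, Col1a2 and Col3a1 at 0 in mESC. Htt itself had 0 to 9 counts per library (8 and 8 in WT against 3 and 2 in KO mESC, 9 and 2 against 1 and 1 in NPC), too few for a firm check of the genotypes.

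The scaRNAs together held 21379 of 25027120 counts, or 0.0854%. The counts were concentrated: Scarna6 held 33.9% of them, Scarna6 and Scarna17 together 52.9%, and the 8 most counted members 94.4%. After these came Gm25395, Scarna3a, Scarna8, Gm22767, Gm24644 and Scarna13 with 71 to 424 counts each. A further 5 members (Gm25058, Gm22442, Gm23119, Gm23557 and Gm27653) had 1 to 4 counts in all. Of the 14 members with 50 or more counts, 12 lay in a host gene on the same strand. Scarna17 and Scarna2 did not, lying between annotated genes on chromosome 18 (74778391 to 74778469, minus strand) and chromosome 3 (108554338 to 108554751, minus strand).

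No count was seen for 32 members, including Scarna3b and Mir1839. A count of 0 allows up to 3 counts, or between 1.27 and 8.77 CPM depending on library depth, a limit that covers counting error only. Among the 32 were the 10 entries of the 5 doubly annotated loci (Gm22813, Gm22897, Gm23370, Gm25820 and Gm26413). In all, 13 of the 32 overlapped another exon on the same strand and 15 shared stretches of 30 bases with other transcripts, and how reads with more than 1 possible origin were counted is not given in the sources used here. Scarna17 is also touched by this: 82% of its 30-base stretches occur in Gm25443, a member at 0. Likewise 34.0% of those of Gm24289 occur in Gm23505, which was also at 0. The share of members with a count, 37.3%, stood beside 15.1% of 1507 snoRNA genes and 9.54% of 1383 snRNA genes in the same table.

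Compared per length, Scarna17 was the most abundant member in both cell types. Its level was 131 ± 74.9 CPM per 100 bases (SD, n = 12) in mESC and 562 ± 154 in NPC. Scarna6 came next, with 108 ± 64.5 CPM per 100 bases in mESC and 178 ± 31.5 in NPC, so that the levels of Scarna17 and Scarna6 were within their spread of each other in mESC and not in NPC. The order below them differed: Gm22728 ranked 3 in mESC at 80.2 ± 31.4 CPM per 100 bases and 7 in NPC at 18.04 ± 7.73, while Gm23751 ranked 6 in mESC at 23.7 ± 12.9 and 3 in NPC at 67.6 ± 21.5. Scarna2, the longest of the counted members at 414 bases, stood at 14.2 ± 6.71 and 15.1 ± 3.88 CPM per 100 bases.

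**Figure D1:**
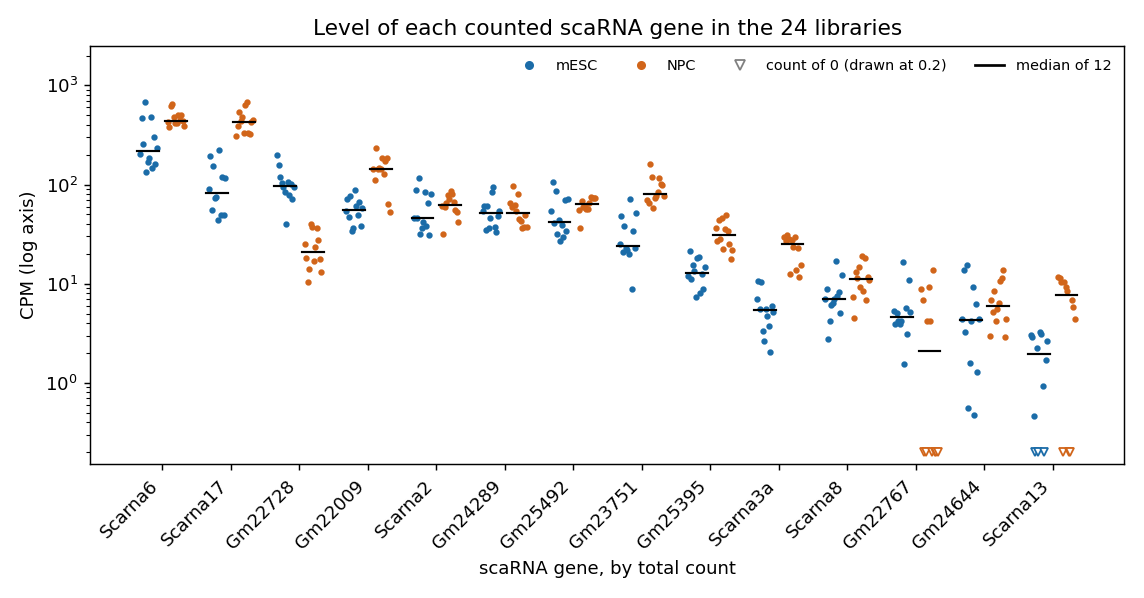
Level of the 14 scaRNA genes with 50 or more counts, in CPM on a log axis; each point is 1 of 24 libraries, bars are medians of 12, and triangles mark libraries with a count of 0. Scarna17 and Scarna3a lie higher in all NPC libraries than in all mESC libraries, and Gm22728 lies lower.

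The summed scaRNA level differed between libraries of the same group in mESC. In mESC it ran from 462 CPM (95% Wilson interval 434 to 492) in replicate 1 of Q92 to 1372 CPM (1300 to 1448) in replicate 2 of KO, with a median of 705 CPM. In NPC it ran from 1178 CPM in replicate 2 of WT to 1897 CPM in replicate 1 of KO, with a median of 1377 CPM. The 2 cell types therefore overlapped, although within 5 of the 6 lines both NPC libraries lay above both mESC libraries.

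Replicate 2 of mESC was above replicate 1 in 6 of 6 lines, by 1.65 to 2.12 times in the 5 lines other than Q20 and by 1.10 times in Q20. The NPC ratios were 0.854 to 1.05. In the same 5 mESC lines the total count of replicate 2 was only 0.301 to 0.487 times that of replicate 1, while the scaRNA counts themselves were 0.625 to 0.942 times. What set the mESC libraries apart was not tested. The axis did not touch members alike. Scarna17 was 2.14 to 5.08 times higher in replicate 2 of the 5 lines and Gm23751 1.86 to 3.83 times, whereas Gm22728 was higher in 3 of the 5 and Scarna3a in 2 of the 5.

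**Figure D2:**
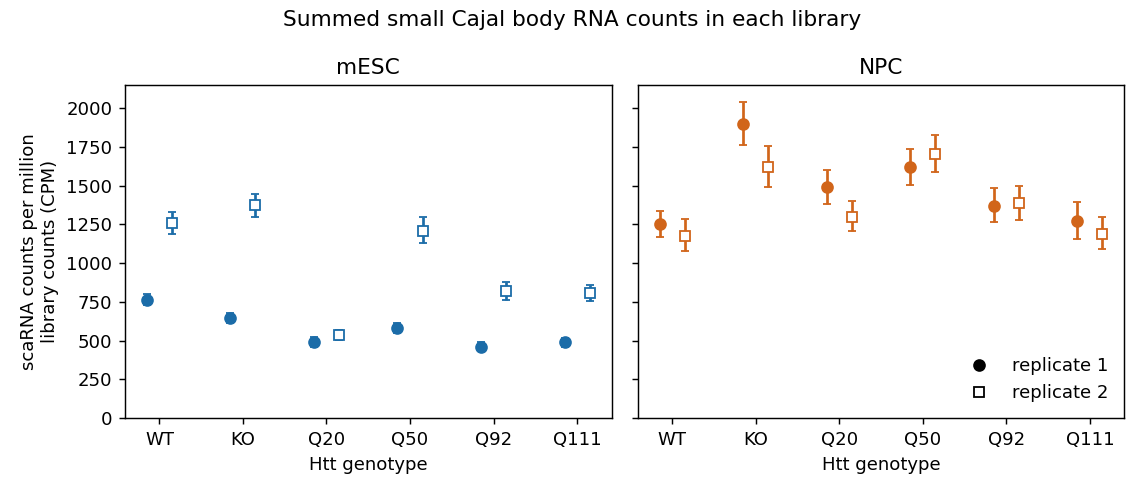
Summed scaRNA CPM in each library, by Htt genotype; filled circles are replicate 1, open squares replicate 2, and bars are 95% Wilson intervals, which cover counting error only. In mESC, replicate 2 is higher in all 6 lines and nearly level in Q20, and the NPC libraries lie between 1178 and 1897 CPM.

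NPC were compared with mESC to ask how the scaRNA content changed on differentiation. Of 11 members tested, 6 rose and 1 fell. Scarna17 and Scarna3a rose the most, although Scarna3a passed the filter on low counts only through its NPC libraries. Gm23751, Gm25395 and Gm22009 rose by 1.92- to 2.35-fold, Scarna6 rose by 1.42-fold, and Gm22728 fell by more than any other member changed. The table as a whole also differed strongly between the cell types: of 904 genes tested with edgeR's quasi-likelihood test and Benjamini-Hochberg adjustment, 58.4% were called at an adjusted p under 0.05, 30.4% higher and 28% lower in NPC. The 7 of 11 members called is near that background. The median log2 change was 0.51 over the members tested and -0.02 over all genes tested. In these bulk libraries, fewer cells of a type and less RNA per cell cannot be told apart.

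Among the 11 members, the CPM of the 12 NPC and the 12 mESC libraries did not overlap for 3, with Scarna17 and Scarna3a higher and Gm22728 lower in NPC. Scarna3a passed the filter on low counts only through its NPC libraries, where it was high. Over all genes tested the share without overlap was 11.5% (8.85% higher and 2.65% lower). The other 8 members overlapped, among them 4 that passed the test.

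With TMM scaling and the filter, all 4 members with C and D boxes were called higher in NPC, as were 2 of the 4 with neither set of letters, and 1 of 3 tested members with the ACA triplet was called, lower. Letters and known class differ for some members, since Scarna2, a methylation guide, and Scarna3a, a box H/ACA guide, had neither set. The split also depends on the place set for the ACA triplet. Gm23751 and Scarna3a, called higher, and Gm24289, not called, have an ACA triplet that ends 2 bases before the 3′ end. The letters therefore do not separate members called higher from ACA-ended members. By class as known for guides with a Scarna name, and with the non-members Scarna9 and Scarna10 counted in, 2 of 3 tested box C/D guides, 1 of 2 box H/ACA guides and 2 of 2 with both modules were called higher, and 0 lower. Over all genes tested, 30.4% were called higher and 28% lower, and each class is too small to set against these shares. Scarna17 belongs to the ribose methylation guides. Its level in mESC had a lowest value of 43.5 CPM and a highest of 221 CPM, both in the Q50 line, and a median of 82.5 CPM. The NPC libraries lay between 308 and 674 CPM with a median of 432 CPM, above all mESC libraries. The log2 change was 1.82 ± 0.23 (SE, n = 12 libraries per cell type, edgeR adjusted p = 3.16e-07), or 3.53-fold. Both NPC libraries were above both mESC libraries in 6 of 6 lines, with ratios of line means from 2.46 in WT to 5.50 in Q20.

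Scarna6 carries box C/D and box H/ACA modules in its human counterpart and gave the most counts of any member, 150 to 659 per library. In mESC it ranged from 135 CPM in replicate 1 of Q20 over a median of 220 CPM to 685 CPM in replicate 2 of KO. In NPC it ranged from 383 to 642 CPM with a median of 441 CPM, and both of the highest libraries were KO. The NPC values sat inside the upper part of the mESC range. The log2 change was 0.51 ± 0.18 (edgeR adjusted p = 0.0201). This call did not hold without the Q20 libraries (log2 0.31, adjusted p = 0.177) with only replicate 2 of mESC (0.07, adjusted p = 0.633) or without replicate 1 of mESC Q92 (0.36, adjusted p = 0.073), and the change was -0.02 with no filter on low counts.

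Gm25395, the other guide in Atg16l1, rose by 0.96 ± 0.20 on the log2 scale (edgeR adjusted p = 0.000254), from 13.5 ± 4.45 CPM to 32.3 ± 10.2 CPM (SD, n = 12). It stood at 5.54% ± 2.30 of the Scarna6 count in mESC and 6.89% ± 1.98 in NPC. These ratios overlapped between the cell types (2.28% to 9.92% and 4.00% to 9.66%). The host gene is an autophagy gene, and its own mRNA counts were low, 1 to 18 per library, with a log2 change of -0.35 ± 0.35 that was not called (edgeR adjusted p = 0.411).

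Gm22009, in the importin gene Kpna4, had 34.0 to 87.5 CPM in mESC with a median of 55.9 CPM. In NPC it had 52.8 to 236 CPM with a median of 144 CPM, and the Q111 libraries, at 64.3 and 52.8 CPM, were the only NPC libraries within the mESC range. Its log2 change was 0.94 ± 0.16 (edgeR adjusted p = 1.75e-05). With no filter on low counts it was 0.38 and not called (adjusted p = 0.392), as was that of Gm25395 at 0.39 (adjusted p = 0.608).

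Gm22728, an ACA-ended member in an intron of the stress granule gene G3bp2, was the single member called lower. Its counts were 68 to 450 per library in mESC and 4 to 20 in NPC. In CPM, the mESC libraries ran from 39.8 in replicate 1 of Q50 over a median of 97.5 to 197 in replicate 1 of WT, and the NPC libraries from 10.4 over a median of 20.7 to 39.5. The highest NPC library, replicate 1 of Q20, was just below the lowest mESC library. The log2 change was -2.52 ± 0.20 (edgeR adjusted p = 2.45e-10), a level 5.74-fold lower in NPC, and both NPC libraries were below both mESC libraries in 6 of 6 lines. The NPC mean was 0.43 times the mESC mean in Q20 and 0.111 times in KO, the ends of the range over lines. Exonic counts of its host G3bp2 also fell, by 1.06 ± 0.22 on the log2 scale (edgeR adjusted p = 0.000203), from 18.1 ± 5.55 to 11.9 ± 7.16 CPM (SD, n = 12), on 1 to 49 counts per library.

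Gm25492 ends in the same triplet and has the same length as Gm22728, but its log2 change was 0.00 ± 0.18 (edgeR adjusted p = 0.988). Its level was 27.1 to 106 CPM in mESC and 36.3 to 75.2 CPM in NPC. Scarna8, a pseudouridylation guide in Haus6, had 2 to 16 counts per library and a log2 change of 0.32 ± 0.24 (edgeR adjusted p = 0.278). The ACA-ended members Gm22767, Gm24644 and Scarna13 did not pass the filter on low counts.

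Gm23751, in the chromatin remodeller gene Chd4, had 8.90 to 71.6 CPM in mESC with a median of 23.9 CPM. Its NPC libraries had 58.2 to 161 CPM with a median of 80.9 CPM. Both NPC libraries were above both mESC libraries in 6 of 6 lines, and the log2 change was 1.24 ± 0.22 (edgeR adjusted p = 4.12e-05). Chd4 mRNA counts gave -0.18 ± 0.26 and were not called (edgeR adjusted p = 0.571).

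Scarna3a, a box H/ACA guide in the ubiquitin ligase gene Cop1, was sparse, with 2 to 16 counts per library in mESC and 4 to 20 in NPC. In CPM it had 2.07 to 10.7 with a median of 5.37 in mESC, and 11.7 to 31.1 with a median of 25.2 in NPC. The cell types did not overlap, and the log2 change was 1.73 ± 0.22 (edgeR adjusted p = 6.35e-07). Since Scarna3a passed the filter on low counts only through its NPC libraries, neither value stands apart from that filter. Its reads may also not be separable from those of Mir1843b.

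Scarna2 and Gm24289 were not called. Scarna2, a methylation guide transcribed outside any host gene, had 30.9 to 117 CPM with a median of 46.0 CPM in mESC and 31.8 to 86.7 CPM with a median of 62.7 CPM in NPC. Its log2 change was -0.19 ± 0.20 (edgeR adjusted p = 0.432), and 3 of 6 lines had the higher mean in NPC. Gm24289, in Tipin, gave -0.29 ± 0.16 (edgeR adjusted p = 0.132), and 4 of 6 lines had the higher mean in NPC. With only replicate 2 of mESC both were called lower, at -0.63 and -0.41 (adjusted p = 0.00177 and 0.0409).

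**Figure D3:**
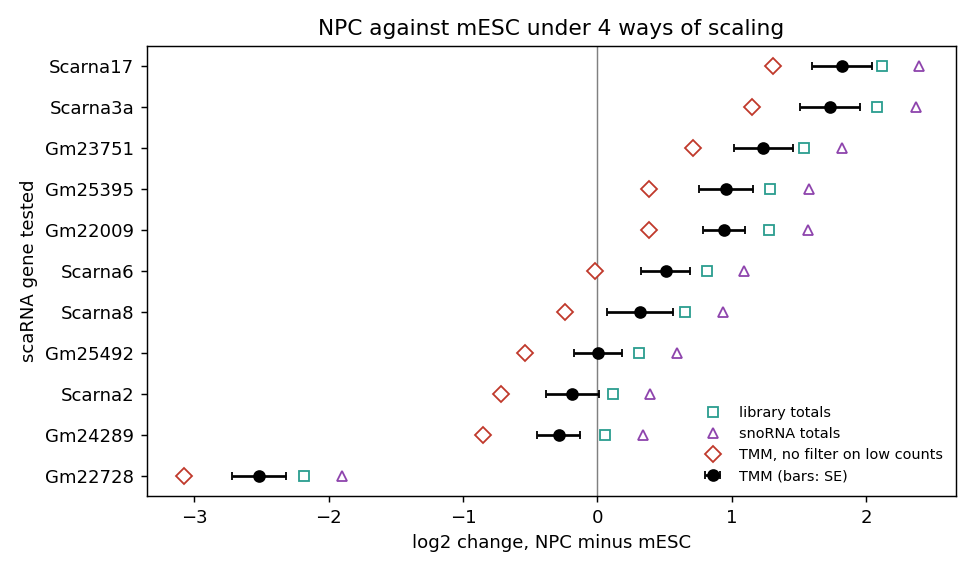
Log2 change of NPC minus mESC for the 11 members tested; black points with standard errors are the edgeR estimates with TMM scaling, and open symbols are the same data scaled by library totals, by snoRNA totals, or by TMM with no filter on low counts. All members move together between scalings, Scarna17, Scarna3a, Gm23751, Gm25395 and Gm22009 stay above 0 and Gm22728 below 0, and the 5 members between them change sign, Scarna6 only to -0.02.

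The scale of the comparison shifted all genes. Relative to TMM, the median of the 904 genes moved by 0.34 on the log2 scale with library totals, by 0.62 with snoRNA totals and by -0.55 with no filter on low counts. Members called higher and lower were then 7 and 1, 8 and 1, and 3 and 4, against 6 and 1 with TMM and the filter. Scarna17, Scarna3a and Gm23751 were called higher and Gm22728 lower under each of these scalings. Without the Q20 libraries 5 were higher and 2 lower, with only replicate 1 of mESC 6 and 2, and with only replicate 2 of mESC 5 and 4. In the wild-type libraries alone, 2 against 2, Gm22728 was the single call among 10 members tested, where 123 of 440 genes were called.

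The share of each member among the scaRNA counts does not depend on the library total. Of the scaRNA counts, Scarna17 made up 12.6% ± 3.16 (SD, n = 12) in mESC and 30.7% ± 5.98 in NPC, with ranges of 7.48% to 18.3% and 23.3% to 39.6%. Gm22728 made up 14.2% ± 5.48 and 1.67% ± 0.757, with ranges of 6.84% to 25.8% and 0.547% to 2.84%. Neither pair of ranges overlapped. Scarna6 made up 34.5% ± 6.49 in mESC and 32.9% ± 3.37 in NPC, and its ranges overlapped. A share falls when another rises, so these values are not independent of one another.

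**Figure D4:**
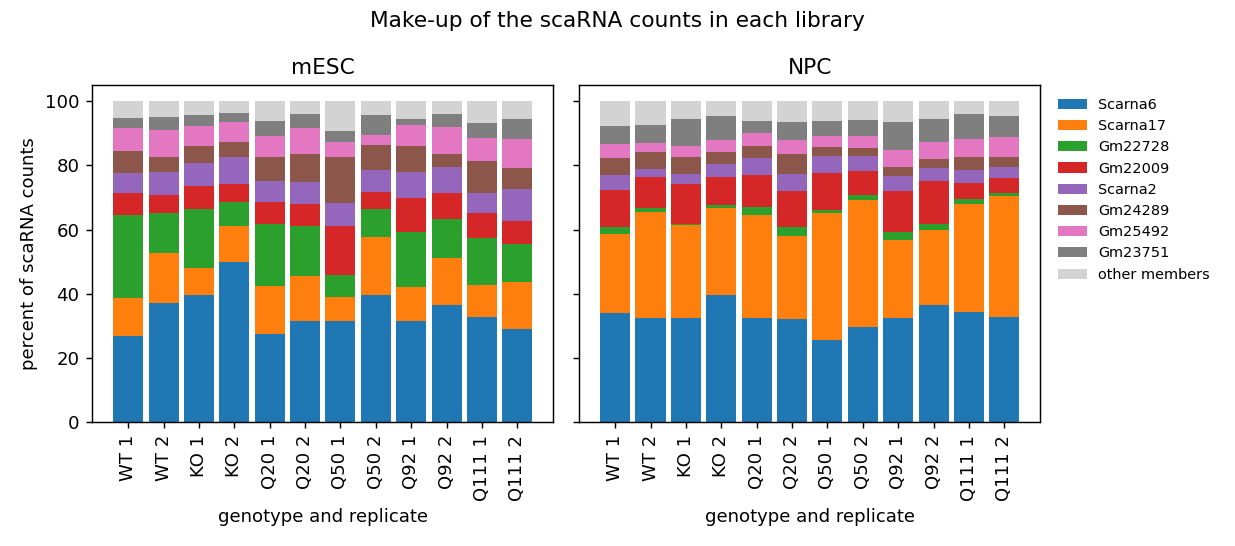
Percent of the scaRNA counts of each library held by the 8 most counted members and by all others, for mESC and NPC libraries ordered by genotype and replicate. Scarna17 holds 7.48% to 18.3% in mESC and 23.3% to 39.6% in NPC, Gm22728 holds at most 2.84% in NPC, and Scarna6 holds 26.9% to 49.9% in mESC.

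Other genes of the pathway were read from the same fit. Scarna9 and Scarna10 are named as scaRNAs but have the biotype snoRNA in M21 and so are not members. Both rose in NPC: Scarna9, a methylation guide, by 1.25 ± 0.17 on the log2 scale from 182 ± 77.3 to 533 ± 89.5 CPM (edgeR adjusted p = 1.63e-06), and Scarna10, which carries both modules, by 0.80 ± 0.16 from 67.3 ± 26.5 to 146 ± 47.0 CPM (edgeR adjusted p = 0.000145). Within NPC, Scarna10 also differed among the 6 lines (edgeR F test, adjusted p = 0.00792), as did 37.2% of 441 genes. Its slope per 10 CAG repeats was -0.14 ± 0.04 (edgeR adjusted p = 0.0469), in a test that called 6.45% of 403 genes. Scarna9 was called in neither test (edgeR adjusted p = 0.364 and 0.732). Against WT, Scarna10 gave log2 differences of 0.75 in Q20, 0.33 in Q50, -0.06 in Q92 and -0.71 in Q111, none of them called. The Q20 NPC libraries are those that held stem cell markers. No value of the slope without them or under other processing is given here. Of 115 genes of biotype snoRNA tested, 27 were called higher and 55 lower, with a median of -0.33. The snRNAs, which the scaRNAs modify, had 2 higher and 7 lower of 16 tested, with a median of -0.36. Over all 904 genes tested, 58.4% were called, 30.4% higher and 28% lower, so the total called among snRNAs is near the background. A link between scaRNA and snRNA levels was not tested. Among them Rnu12 of the minor spliceosome gave 0.41 ± 0.18 (edgeR adjusted p = 0.0567) and Rnu11 -0.12 ± 0.20 (adjusted p = 0.621), and neither was called. Of 22 genes for Cajal body and scaRNA-binding proteins, all with counts, 1 passed the filter: Nop58, a core protein of box C/D particles. It was called lower at -2.13 ± 0.35 (edgeR adjusted p = 1.29e-05). Of the 22, 5 passed in the fit of mESC alone, Nop58 among them, and 0 in that of NPC alone. The lower call of Nop58 can therefore not be set apart from the filter. The 22 genes together summed to 35.1 to 95.7 CPM in mESC and 22.0 to 54.7 CPM in NPC. Terc, the telomerase RNA, which also visits Cajal bodies, was at 0 in all 24 libraries.

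The 6 lines were compared within mESC to ask whether Htt genotype related to scaRNA levels. None of 13 members tested was called by the edgeR F test over the 6 lines, 0 had an unadjusted p under 0.05, and DESeq2 called 0 as well. The background was 0.0566%, 1 of 1766 genes. KO against WT in mESC gave 0 of 13, against a background of 0%, with 1 member at an unadjusted p under 0.05 (Scarna8, log2 -1.22 ± 0.56) and 0 by DESeq2. Scarna17 differed by -0.46 ± 0.62, Scarna6 by 0.47 ± 0.52 and Gm22728 by -0.70 ± 0.49 between KO and WT. The standard errors are of the size of the differences, and the gap between replicates 1 and 2 described above lies inside each group. These tests did not model the replicate number, so the gap is part of their spread, although it ran alike in the lines other than Q20. In simulated counts with a log2 change of 2 in KO mESC, the test of KO against WT recovered 27.2% of the changed genes. The F test over the 6 lines recovered 38.9%, so the absence of calls in mESC leaves room for changes of that size. For the slope over CAG repeats in the 4 knock-in lines, 0 of 13 members were called (0 at an unadjusted p under 0.05, 0 by DESeq2, background 0%), and the slopes per 10 repeats lay between -0.05 and 0.04 on the log2 scale. Q20, Q50, Q92 and Q111 against WT gave 0 of 13 each by edgeR and 0 each by DESeq2, with backgrounds of 0.0566%, 0%, 0% and 0%, and 2, 2, 0 and 2 members at an unadjusted p under 0.05. With the replicate number as a block, Gm24644 was called lower in Q20 (log2 -2.76, edgeR adjusted p = 0.0344). In these 4 lines 13, 7, 10 and 12 of 13 members lay below WT, and 11 in KO. Member medians were -0.63, -0.25, -0.42 and -0.65, and -0.30 in KO. Over all genes the medians were -0.07, 0.04, -0.01 and 0.02, and 0.03 in KO. All lines were set against the same 2 WT libraries, and this lean was not tested.

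In NPC, where replicates were closer, 2 of 10 members tested differed among the 6 lines: Scarna17 (edgeR F test, adjusted p = 0.00119) and Gm22009 (adjusted p = 0.0206). This share lies below the background of 37.2% of 441 genes. Scarna17 in NPC was highest in Q50, at 637 and 674 CPM, followed by KO at 545 and 438, Q111 at 427 and 449, Q20 at 478 and 334, WT at 308 and 386, and Q92 at 333 and 323 CPM. The Q50 libraries lay above all other NPC libraries, and the lines below them overlapped with their neighbours in that order. Against WT, 9 of 10 members were higher in Q50, with a median log2 difference of 0.52 against 0.04 over all genes tested, so the direction was not particular to Scarna17. Scarna17 itself was higher by 1.21 ± 0.23 on the log2 scale (edgeR adjusted p = 0.00731). It was the 1 call of 10 members in that comparison, where 6.58% of all genes were called, 5.22% higher. Without replicate 2 of Q50 it was 0.93 and not called (adjusted p = 0.132), and with no filter on low counts it was 0.87 and not called.

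Gm22009 in NPC was lowest in Q111, at 64.3 and 52.8 CPM. The other lines had 144 and 111 CPM (WT), 236 and 142 (KO), 146 and 144 (Q20), 184 and 127 (Q50), and 171 and 187 (Q92), so that both Q111 libraries lay below the 10 others. Against WT, the difference of Q111 was -1.02 ± 0.33 (edgeR adjusted p = 0.0526) and was not called; with the replicate number as a block it was -0.998 and called (adjusted p = 0.0401). The call over the 6 lines was lost without the Q20 libraries (adjusted p = 0.0568) and with no filter (adjusted p = 0.132). It was also lost when any 1 library of Q20, Q92 or Q111, or replicate 1 of Q50, was left out (adjusted p up to 0.21). With the genes of the full fit it was lost in 3 of these 12 fits, without replicate 2 of Q20 or either library of Q111 (adjusted p up to 0.16). In mESC the 2 Q111 libraries had 38.1 and 58.3 CPM, within the range of the other mESC libraries.

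**Figure D5:**
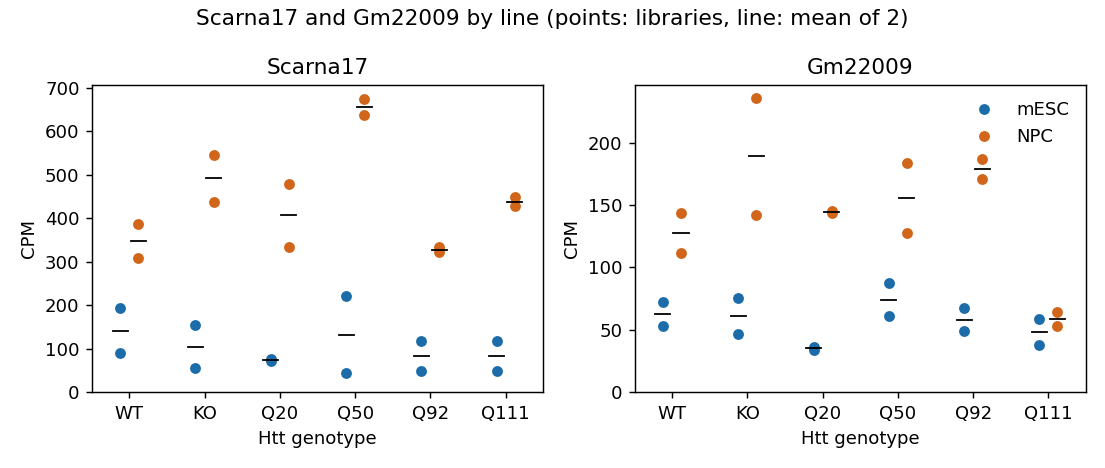
Scarna17 and Gm22009 in CPM by Htt genotype, mESC in blue and NPC in orange; each point is a library and each line the mean of 2. In NPC the Q50 libraries are highest for Scarna17, at 637 and 674 CPM, and the Q111 libraries lowest for Gm22009, at 64.3 and 52.8 CPM.

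KO against WT in NPC gave 0 of 10 members (background 1.36%; 1 at an unadjusted p under 0.05; 0 by DESeq2). The member at an unadjusted p under 0.05 was Gm23751, at 0.83 ± 0.30 with an edgeR adjusted p of 0.242; its KO libraries, at 161 and 119 CPM, were the highest of the NPC libraries. Scarna6 was 0.42 ± 0.22 higher in KO (edgeR adjusted p = 0.46), Scarna17 0.31 ± 0.24 higher (adjusted p = 0.686) and Gm22728 1.04 lower (log2 -1.04 ± 0.51, adjusted p = 0.435), and none of these was called. The slope over CAG repeats in NPC called 0 of 10 members (0 at an unadjusted p under 0.05; 0 by DESeq2), while 6.45% of 403 genes were called, and the slopes per 10 repeats furthest from 0 were -0.09, for Gm25395, Gm22728 and Gm22009. Q20, Q92 and Q111 against WT also gave 0 of 10 members each by edgeR and 0 each by DESeq2 (backgrounds 12.7%, 18.8% and 10.9%; 0, 1 and 2 members at an unadjusted p under 0.05).

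Whether the change from mESC to NPC itself differed between the 6 lines was tested in a fit of all 24 libraries. None of 11 members was called (background 2.1%; 0 by DESeq2), and 2 had an unadjusted p under 0.05, Gm22728 and Gm25492, with adjusted p-values of 0.455 and 0.459. In simulated counts with a log2 change of 2 in KO NPC alone, this test recovered 10.4% of the changed genes. The absence of calls therefore does not show that the lines changed alike.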

How the data were processed

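Small RNA libraries of 24 samples (12 groups of 2) were read as 50-base single reads, per the labels' protocols. The deposited values are raw counts per Ensembl gene, not normalized. Per the submitters' processing notes, CASAVA 1.8, STAR, HTSeq and build GRCm38.p6 were used; adapter trimming, the annotation release and the strand setting are not given in the sources used here, so reads of overlapping genes may not be separable. The 4 columns named Q89 were taken as the samples titled Q92, since the growth protocol gives 89 repeats for that line.

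Identifiers were matched without version to GENCODE M21 (55154 of 55335). CPM values are counts divided by the library total, times 1000000. Tests used edgeR 4.0.16 in R 4.3.3 on all genes (glmQLFit and glmQLFTest, TMM scaling, filterByExpr set to min.count 10 and min.total.count 15), with Benjamini-Hochberg adjustment over all genes tested and a call at an adjusted p under 0.05. NPC against mESC was the mean of 6 NPC groups minus the mean of 6 mESC groups. Genotype tests within a cell type used its 12 libraries, and slopes its 8 knock-in libraries. The standard error of a log2 change or slope was taken as its absolute value divided by the square root of the quasi-likelihood F. For differences between groups it reflects the spread within groups, not that between lines. The fitting scripts were tested on simulated counts with a log2 change of 2 in part of the genes and a common spread. All changed genes were recovered for NPC against mESC, where 9.68% of calls were false. Within mESC, recovery was 27.2% for KO against WT, 38.9% for the F test and 72.0% for the slope. Within NPC it was 88.9%, 90% and 100%. For the cell type change by line it was 10.4%. Replicate pairs differed by more than sampling noise in each of the 12 groups (chi-square per degree of freedom 2.02 to 88.3), so none was counted as 1 library. These values cannot tell whether the 2 libraries of a group came from separate cultures.

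Genes named in full were the 6 members with the highest mean CPM and, per comparison, the 2 called members with the smallest p in each direction; Gm25395, Gm25492, Gm24289, Scarna8, Scarna9, Scarna10, Nop58, Rnu12, Rnu11 and the host genes were added after their values were seen. The members and lists were chosen with earlier results of these data known. Alternatives were DESeq2 size factors, library totals, snoRNA totals, no filter, DESeq2 1.42.0, a replicate block, an additive model, subsets of libraries and leaving out each library in turn.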

Additional observations from a re-analysis of the deposited data

How the results depend on the processing

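The limits are depth, with NPC libraries of at most 682113 counts, and 2 libraries per group. In the comparison of NPC with mESC, 7 members were called, and 1 with the wild-type libraries alone; the other alternatives that leave out no single library gave 7 to 9. Scarna6 turned to -0.016 with no filter, and Gm25492 to -0.42 with only replicate 2 of mESC, an alternative chosen after seeing the data, as was that with only replicate 1 and the repeat of leaving out each library with the genes of the full fit kept. Leaving out 1 library leaves a group with 1 library, so the filter admits more genes (1289 to 1373 in place of 904): 7 to 9 members were then called, or 6 to 7 with the genes of the full fit. Scarna6 lost its call in 20 of these 24 fits, all but those without replicate 2 of mESC WT, KO, Q50 or Q92 (log2 0.27 to 0.46). With the genes of the full fit it lost it in 1, without replicate 1 of mESC Q92 (0.36, adjusted p = 0.073). Gm24289 gained a call, lower, in 22 of 24, all but those without replicate 1 of mESC Q111 or of NPC Q20 (-0.53 to -0.42), and in 0 with the genes of the full fit.

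Among the NPC lines, 2 members were called, with 4 under library totals, 1 with no filter and 1 without the Q20 libraries. Leaving out 1 library gave 1 to 5 calls (5 without either WT library), or 1 to 4 with the genes of the full fit. The call of Gm22009 was lost without replicate 1 or 2 of Q20, Q92 or Q111 or replicate 1 of Q50, or in 3 of 12 fits with the genes of the full fit. That of Scarna17 was kept in all 12 fits of either kind. KO against WT, the CAG slope, the mESC lines and the cell type change by line had 0 members called under every alternative run. In fits that leave a group with 1 library, that library is assumed to vary like the others.

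Replicate numbers correlated across mESC groups without Q20 (0.408 to 0.516 in 10 of 10 pairs) but not with Q20 (at most 0.0784). In NPC the correlation exceeded 0.1 in 3 of 10 pairs without and 1 of 5 with Q20. Since not every pair exceeded 0.1, replicate numbers were not taken as pairing the samples in the main tests. Replicates of the 5 other mESC lines nevertheless deviated together, and the main mESC tests keep this shared deviation in their spread. Their absence of calls is limited by it. With the replicate block, 7 members were called in NPC against mESC and 2 among the NPC lines, the same counts as without it, and 0 for the mESC lines, KO against WT, the slopes and the cell type change by line. Against WT it added Gm24644 in mESC Q20 (-2.76, adjusted p = 0.0344), Scarna2 in NPC Q50 (1.10, adjusted p = 0.0491) and Gm22009 in NPC Q111 (-0.998, adjusted p = 0.0401). Over all genes the block moved the calls from 1 to 29 among the mESC lines, from 1 to 25 for mESC Q20 against WT, from 0 to 3 for the mESC slope, from 26 to 9 for the NPC slope and from 19 to 44 for the cell type change by line.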
